A study of Mus musculus with 14 samples.

Results

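The outer layer of the fetal mouse heart was compared between its ventral and its dorsal face in 6 female libraries, ventral replicates 1 to 3 and dorsal replicates 1 to 3, out of the 14 libraries of the series. The libraries were chosen by their labels alone. All come from hearts at E16.5, from which the epicardium with the layer beneath it was dissected, and each holds RNA pooled from 2 hearts. No treatment is named for either side. The labels give the genotype Tbx18Cre for ventral and dorsal libraries alike, a Cre recombinase at the locus of Tbx18, a gene that the epicardium itself uses, while the study describes the hearts as wild type. Of the 15894 genes in the table, 14411 reached a value of 1 in at least 3 of the 6 libraries and were tested.

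The epicardium is a single sheet of mesothelial cells that covers the heart. Some of its cells lose their epithelial contacts, enter the connective tissue below and give rise to fibroblasts and to the mural cells of coronary vessels. The sheet makes retinoic acid and growth factors that act on the muscle beneath, and the space under it holds coronary veins, lymphatic vessels, macrophages and nerves. A dissected layer therefore contains several cell types, and in bulk RNA fewer cells of a type and less RNA per cell cannot be told apart.

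Values are normalized CPM, the authors' read numbers scaled by an effective library size. Totals of the 6 libraries therefore differ, from 962135 in dorsal replicate 1 to 1089818 in dorsal replicate 2. Changes are ventral minus dorsal on the scale of log2(normalized CPM + 1). Libraries held 13918995 to 19449635 reads on the listed genes ventrally and 19817492 to 20825241 dorsally. The first principal component held 58.0% of the variance and separated both sides. Cardiomyocyte transcripts were abundant in every library. The 12 ventricular markers summed to 26565 to 38190 normalized CPM ventrally and 35008 to 52280 dorsally, ranges that overlap. No marker of lung epithelium was listed, the 1 hepatocyte marker listed stayed under 1 normalized CPM in all 6 libraries, and of the thymocyte markers only Lck was listed. Dorsal replicate 1 stood apart in atrial genes, with 7228 normalized CPM of the atrial light chain Myl7 against 369 and 228 in the other dorsal libraries. The titles number the ventral libraries 6 to 8 and the dorsal ones 17 to 19. What the number marks is not given, so any difference in preparation and the side of the heart cannot be told apart. The samples came from at least 3 litters, but which pool came from which litter is not given, and p-values measure the spread between these pools.

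With limma and a Benjamini-Hochberg adjusted p below 0.05, 4007 genes (27.8% of those tested) were called, 2089 (14.5%) higher ventrally and 1918 (13.3%) higher dorsally. All ventral libraries exceeded all dorsal ones for 3350 genes (23.2%), and the reverse held for 3107 (21.6%). The median change of all genes was 0.01. The count was 2158 without ventral replicate 2 and 2291 without dorsal replicate 2. Shares of 14.5% and 13.3% are the background against which the counts for gene groups stand. Lists and members were chosen with earlier results of these data known, so shares above the background may follow in part from that choice. Over the lists, 65 of 99 counts of at least 1 gene in a direction moved by more than 1.5 times when some single library was left out, and 22 of the 30 counts of 1 or 2 genes did. Genes named were taken by fixed rules from marker lists, pathways and families, and beyond them are described the genes with the largest changes. Except for defining markers, a gene was given with values only if called with groups that do not overlap. Where groups are said below to stand apart in such genes, that was a condition of naming and no further result.

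Genes of the epicardial sheet stood uniformly on the ventral side. All 12 epicardial markers rose ventrally, with a median change of 2.27, and their summed level was 1871, 3052 and 2684 normalized CPM in ventral replicates 1 to 3 against 324, 676 and 644 in the dorsal ones. Upk3b, a uroplakin of the mesothelial surface (chromosome 5, 136038496 to 136046487, plus strand, GRCm38), measured 700.4, 1012 and 855 normalized CPM ventrally and 90.2, 243 and 197 dorsally, a log2 change of 2.37 (SE 0.32, adjusted p = 0.00119). Msln, the mesothelial cell surface protein mesothelin, measured 374, 691 and 506 against 38.2, 145 and 65.1 normalized CPM (log2 change 2.81, SE 0.41, adjusted p = 0.00169). In both genes the lowest ventral library was above the highest dorsal one. The basonuclin Bnc1, a zinc finger protein of epithelia, measured 21.7, 32.3 and 36.3 against 1.92, 3.95 and 9.51 normalized CPM, and the mucin Muc16 23.6, 47.8 and 26.5 against 4.32, 7.0 and 3.52. Their log2 changes were 2.51 (SE 0.43, adjusted p = 0.00326) and 2.48 (SE 0.33, adjusted p = 0.00113).

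Transcription factors that define the epicardium were called as well. Wt1 measured 57.7, 70.7 and 78 normalized CPM ventrally and 27.3, 26.4 and 42.3 dorsally, a log2 change of 1.10 (SE 0.21, adjusted p = 0.00502, and 0.0598 in the fit with 4 groups). Tbx18, the gene whose locus carries the Cre, measured 44.9, 72.6 and 98.7 and 34.3, 23.9 and 39.6 (log2 change 1.08, SE 0.28, adjusted p = 0.0198). Its call was lost without dorsal replicate 2, ventral replicate 2 or ventral replicate 3 (adjusted p = 0.0689, 0.0736 and 0.0655). Of its 60-base windows, 17.6% also occur in D030062O11Rik on the other strand, and strand use in the counting is not stated, so its level is uncertain to that extent. Dorsal libraries held Wt1 at 26.4 normalized CPM or more and Tbx18 at 23.9 or more, so epicardial transcripts were present on both sides.

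Keratins and other surface genes of mesothelium also stood on the ventral side. Of 19 tested, 15 rose ventrally and none dorsally, with a median change of 2.26. Krt18, a keratin of simple epithelia, measured 94, 159.7 and 109 against 9.81, 30.2 and 24.5 normalized CPM (log2 change 2.53, SE 0.36, adjusted p = 0.00152). Its filament partner Krt8 had a change of 2.52 (SE 0.37, adjusted p = 0.00178), although 27.2% of its windows also occur in a pseudogene. The polarity protein Crb2 was low dorsally, at 0.67, 1.12 and 0.873 normalized CPM against 11, 24.4 and 14.8 ventrally (log2 change 3.17, SE 0.34, adjusted p = 5.41e-04). In a list of junction genes, Cldn15, a claudin of tight junctions, measured 52.3, 109 and 93 against 6.17, 15.8 and 22.2 (log2 change 2.54, SE 0.41, adjusted p = 0.0026). Of 30 cadherins, claudins and other junction genes, 9 rose ventrally (5 without ventral replicate 2) and 2 dorsally, Dsc2 and Pkp2. Dsc2, a desmosomal cadherin, measured 10.7, 4.66 and 8.12 ventrally and 24.5, 34.2 and 18.6 dorsally, and Pkp2, a plakophilin, 69.6, 67.1 and 64.7 and 90.1, 127 and 113 (log2 changes -1.62, SE 0.32, adjusted p = 0.00618, and -0.69, SE 0.15, adjusted p = 0.01).

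**Figure D1:**
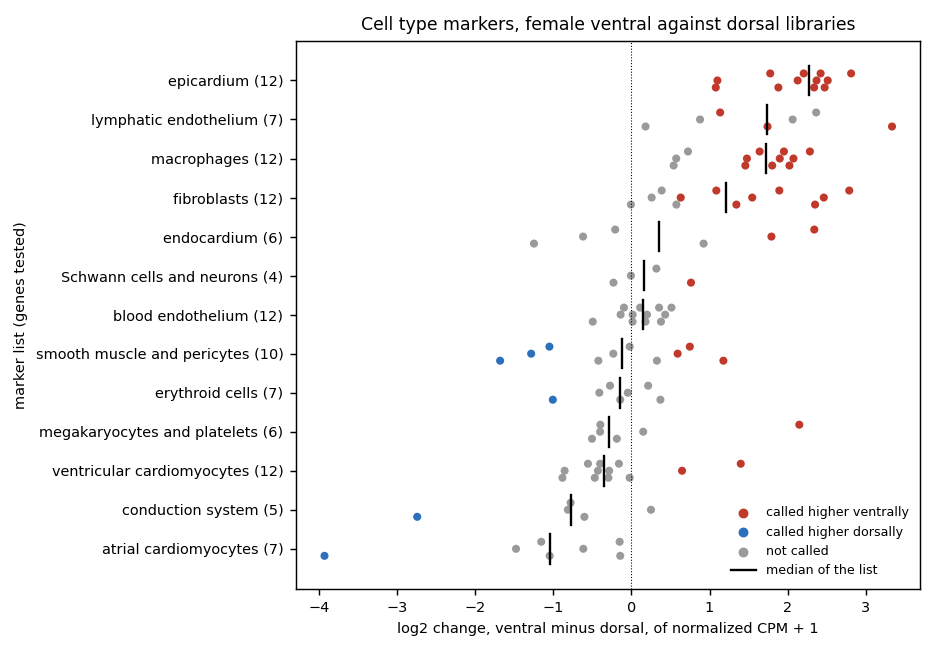
Log2 change (ventral minus dorsal, horizontal axis) of each marker gene, one row per cell type with the number of genes tested in parentheses. Points are genes, coloured by call, and black bars are list medians. All 12 epicardial points are called higher ventrally, while the 12 points for blood endothelium lie uncalled around 0.

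Fibroblast markers rose ventrally with the epicardial ones, in part. Of 12 tested, 8 rose and none fell, with a median change of 1.22, and their sum was 12160 to 22976 normalized CPM ventrally against 3102 to 5054 dorsally. Collagen and matrix genes were among those that rose. Col1a1, a chain of type I collagen, measured 3511, 6189.8 and 6601 normalized CPM ventrally and 951, 725 and 1235 dorsally (log2 change 2.46, SE 0.30, adjusted p = 8.23e-04). The proteoglycan Dcn, which binds collagen fibrils, measured 1420.3, 2373 and 2485 and 529, 506 and 606 (log2 change 1.89, SE 0.23, adjusted p = 8.14e-04). Tcf21, a transcription factor of the fibroblast lineage, was not called. It measured 64.4, 67.3 and 109 and 66.2, 28.8 and 73.2, ranges that overlap (log2 change 0.58, 95% interval -0.17 to 1.32, adjusted p = 0.223). Pdgfra, a growth factor receptor of fibroblasts, measured 61, 56.9 and 73.8 and 54.1, 35.1 and 35.3 (log2 change 0.63, SE 0.20, adjusted p = 0.0399). It was called in 7 of 17 alternatives, and leaving out any library but dorsal replicate 1 gave an adjusted p of 0.063 to 0.131. The call of Pdgfra is therefore less certain than those of the matrix genes.

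Collagens were higher ventrally. All 12 fibrillar and beaded collagens tested rose ventrally, with a median of 2.04, as did 11 of 18 other collagens, with none higher dorsally. Col11a1, a minor fibril chain that sets fibril width, measured 21.1, 38.2 and 85.8 normalized CPM ventrally and 5.15, 3.35 and 16.3 dorsally (log2 change 2.45, SE 0.56, adjusted p = 0.0115). The fibril-associated Col16a1 measured 40.3, 72.3 and 66.7 and 8.34, 7.16 and 11.6 (log2 change 2.58, SE 0.26, adjusted p = 4.36e-04). Of 22 enzymes of collagen assembly, 9 rose, among them the crosslinking oxidase Lox (130.3, 220.4 and 304 against 59.4, 39.4 and 80.1, log2 change 1.83, SE 0.32, adjusted p = 0.00346). Loxl2, of the same family, changed by 1.54 (SE 0.18, adjusted p = 7.45e-04), with 44.4% of its windows shared with Gm21451. In these genes all 3 ventral libraries stood above the 3 dorsal ones.

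Basement membrane genes followed. Of 20 laminins, nidogens and related genes, 16 rose ventrally and none dorsally (median 1.11). Npnt, the integrin ligand nephronectin, measured 41.8, 88.5 and 101 and 17.9, 6.07 and 17.1 normalized CPM (log2 change 2.44, SE 0.42, adjusted p = 0.00326). Fras1, which anchors epithelia to the matrix, measured 59.9, 109.7 and 131 and 45.6, 14.5 and 15.9 (log2 change 2.06, SE 0.41, adjusted p = 0.00627). Lama5, a laminin chain of mature basement membranes, changed by 1.76 (SE 0.26, adjusted p = 0.0019).

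Among elastic fibre and matricellular proteins, 13 of 33 rose ventrally and 1 dorsally. Efemp1, a fibulin, measured 116, 199 and 189 and 18.1, 30.6 and 27.1 normalized CPM (log2 change 2.67, SE 0.25, adjusted p = 3.34e-04), and Eln, elastin, 137, 147 and 131 and 66.9, 14.3 and 38.1 (log2 change 2.02, SE 0.42, adjusted p = 0.00761). Of the proteoglycans, 8 of 23 rose, led by Fmod, which binds collagen (66.9, 121 and 151 against 19.9, 12.1 and 29.3, log2 change 2.42, SE 0.34, adjusted p = 0.00155). Matrix proteases and their inhibitors had 13 of 30 higher ventrally, with Mmp23 at 82.3, 91.1 and 117 against 31.3, 25.7 and 32 (log2 change 1.66, SE 0.17, adjusted p = 4.71e-04). Of 20 integrin subunits, the receptors of these proteins, 6 rose, and the laminin receptor chain Itga3 measured 19.9, 31.8 and 27.2 against 8.61, 6.23 and 6.11 (log2 change 1.76, SE 0.26, adjusted p = 0.00178). Counts fell with fewer libraries. That of elastic fibre genes was 8 without ventral replicate 2 or 3, that of proteases 8 without dorsal replicate 2 or ventral replicate 2, and that of integrins 3 without dorsal replicate 2 or ventral replicate 2. The sums of epicardial and fibroblast markers were higher ventrally as well, and their part in the matrix counts was not tested.

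Transcription factors of mesenchyme are known to drive the loss of epithelial contacts. Of 12 factors and markers of the epithelial to mesenchymal transition, 4 rose ventrally and 1 dorsally. Twist1, a driver of that transition, measured 7.9, 14.8 and 19.7 normalized CPM ventrally and 1.87, 0.463 and 0.275 dorsally (log2 change 3.03, SE 0.43, adjusted p = 0.00151). Prrx1, a homeobox factor of mesenchyme, measured 43.3, 34.7 and 29.8 and 15.7, 14 and 13 (log2 change 1.26, SE 0.20, adjusted p = 0.00254).

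Retinoic acid is a hallmark product of the epicardium, and 7 of 14 genes of its pathway rose ventrally. Aldh1a2, the enzyme that makes retinoic acid in the epicardium, measured 60, 119 and 109 normalized CPM ventrally and 14.1, 20.7 and 28.6 dorsally (log2 change 2.13, SE 0.30, adjusted p = 0.00151). The retinol carrier Rbp4 changed by 2.24 (SE 0.44, adjusted p = 0.0058). Rarres2, the secreted attractant chemerin, measured 382, 570.4 and 515 and 59.3, 69.9 and 71.6 (log2 change 2.84, SE 0.17, adjusted p = 7.51e-05), with 27.4% of its windows shared with Lrrc61 on the other strand. The receptor Rarb was the exception. It measured 8.74, 7.92 and 9.65 ventrally and 20.4, 16.1 and 17.3 dorsally (log2 change -0.95, SE 0.23, adjusted p = 0.0132), with 33.3% of its windows shared with Top2b and other genes.

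Receiving components of Hedgehog signalling rose ventrally, 6 of 9 genes tested, while the ligand genes Shh and Ihh are not in the table. Smo, the membrane transducer, measured 35.7, 44.9 and 41.1 normalized CPM ventrally and 12.4, 6.07 and 15.3 dorsally (log2 change 1.84, SE 0.30, adjusted p = 0.00269). The co-receptors Gas1 and Cdon measured 109, 207 and 274 against 28.9, 30 and 46.5 and 31.2, 65.7 and 68.9 against 12.3, 3.29 and 14.6. Their changes were 2.39 (SE 0.31, adjusted p = 0.00101) and 2.46 (SE 0.47, adjusted p = 0.00539). A further 16.3% of Gas1 windows occur in Gm48488.

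In the TGF-beta and BMP pathways, 17 of 48 genes rose ventrally and 2 dorsally. The ligand Bmp6 measured 18.4, 40.4 and 34.6 normalized CPM ventrally and 3.99, 3.08 and 7.31 dorsally (log2 change 2.47, SE 0.36, adjusted p = 0.00181). Chrd, which binds BMPs and keeps them from their receptors, rose with it, at 5.19, 10.1 and 5.01 against 0.254, 0.299 and 0.824 (log2 change 2.37, SE 0.36, adjusted p = 0.00206). Ltbp3, which tethers latent TGF-beta to matrix, changed by 2.07 (SE 0.24, adjusted p = 7.07e-04), and the activin chain Inhba by 1.84 (SE 0.36, adjusted p = 0.0057). The dorsal calls, the ligand Bmp5 and the receptor Acvr2a, were close to the threshold. Bmp5 measured 5.61, 7.11 and 6.61 dorsally and 1.7, 3.87 and 2.96 ventrally (log2 change -0.99, SE 0.32, adjusted p = 0.0445), and Acvr2a 37.7, 36.6 and 26 and 22.2, 17.6 and 23.2 (log2 change -0.64, SE 0.21, adjusted p = 0.0461, and 0.0506 with the replicate block). Ligands were thus called on both sides. The ventral count was 10 without ventral replicate 2, 11 without ventral replicate 3. The dorsal count was 1 without dorsal replicate 3 and 0 without any other library.

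For FGF signalling, 7 of 21 genes rose ventrally and 2 dorsally. The receptor Fgfr1 measured 39.6, 51.6 and 44.4 and 20.5, 16.2 and 25.7 normalized CPM (log2 change 1.10, SE 0.21, adjusted p = 0.00481). Fgfbp1, which releases FGFs from matrix, measured 62.6, 154 and 81.1 and 4.73, 28.9 and 11.8 (log2 change 2.84, SE 0.52, adjusted p = 0.00448). Fgf13, an intracellular member that binds sodium channels in muscle cells and neurons, was higher dorsally, at 65.5, 111 and 77.1 against 21.3, 19.1 and 17.7 ventrally (log2 change -2.04, SE 0.21, adjusted p = 4.16e-04).

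Wnt genes had 8 of 37 higher ventrally and 1 dorsally. The ligand Wnt2b measured 5.5, 5.89 and 8.12 against 0.531, 0.735 and 1.72 normalized CPM (log2 change 1.94, SE 0.34, adjusted p = 0.00369), and the receptor Ryk 55.6, 81 and 74.3 against 24.4, 18.5 and 22.1 (log2 change 1.65, SE 0.19, adjusted p = 6.67e-04). The Wnt count was 4 without ventral replicate 2, 5 without dorsal replicate 2 or ventral replicate 3. In the Hippo pathway, 13 of 31 genes rose ventrally and 2 dorsally. Wwc1, the scaffold also called KIBRA, measured 16.1, 23.8 and 21.3 and 2.06, 1.01 and 2.52 (log2 change 2.93, SE 0.31, adjusted p = 5.15e-04), and the target Crim1 26.8, 36.7 and 45.8 and 8.29, 6.72 and 9.76 (log2 change 2.0, SE 0.25, adjusted p = 8.70e-04). The kinase Stk3 was higher dorsally, by -0.98 (SE 0.19, adjusted p = 0.00524).

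Notch genes were called on both sides, the receptors Notch2 and Notch3 ventrally and the targets Hes1, Hey1 and Nrarp and the modifier Rfng dorsally. The receptor Notch2 measured 51.4, 49.4 and 68.4 normalized CPM ventrally and 30.4, 22.2 and 30.5 dorsally (log2 change 1.0, SE 0.19, adjusted p = 0.00558). The target Hes1 measured 26.9, 27.8 and 25.4 and 64.4, 55.9 and 66.3 (log2 change -1.19, SE 0.15, adjusted p = 8.95e-04), and the target Nrarp 10.3, 12.6 and 9.18 and 26.5, 35.7 and 36.8 (log2 change -1.54, SE 0.22, adjusted p = 0.00162). Notch3 was at the threshold (log2 change 0.75, SE 0.25, adjusted p = 0.0498, and 0.0691 with the replicate block). For both targets the groups do not overlap, although 76.8% of Nrarp windows also occur in Gm38287 on the other strand. In all, 2 of 19 Notch genes rose ventrally, below the background, and 4 dorsally. The ventral count was 1 whichever library was left out, and the dorsal count was 2 without dorsal replicate 2.

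Guidance molecules, which steer axons and vessels, rose ventrally in 22 of 51 genes, with none called dorsally and a median change of 0.69. The semaphorin Sema3d measured 75.8, 156 and 143 normalized CPM ventrally and 23.6, 23.9 and 36 dorsally (log2 change 2.09, SE 0.27, adjusted p = 0.00108). The semaphorin receptor Plxna4 measured 69.3, 112 and 129 and 19.8, 16.1 and 16 (log2 change 2.47, SE 0.23, adjusted p = 3.34e-04). Slit3, a ligand of Robo receptors, measured 13, 42.7 and 29.1 and 4.87, 1.93 and 5.56 (log2 change 2.45, SE 0.45, adjusted p = 0.00432). Ligands and receptors were thus among the genes called, and the count was 14 without ventral replicate 2. Insulin-like growth factor genes had 8 of 20 higher ventrally (5 without ventral replicate 2) and 3 dorsally. The binding protein Igfbp6 measured 125, 281 and 89.2 and 8.98, 55.2 and 11.4 (log2 change 2.95, SE 0.60, adjusted p = 0.00697), while the receptor substrate Irs1 was higher dorsally, at 18.1, 44.9 and 30.9 against 4.46, 6.18 and 6.07 (log2 change -2.22, SE 0.32, adjusted p = 0.00184), with 30.4% of its windows shared with Gm9747 on the other strand.

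**Figure D2:**
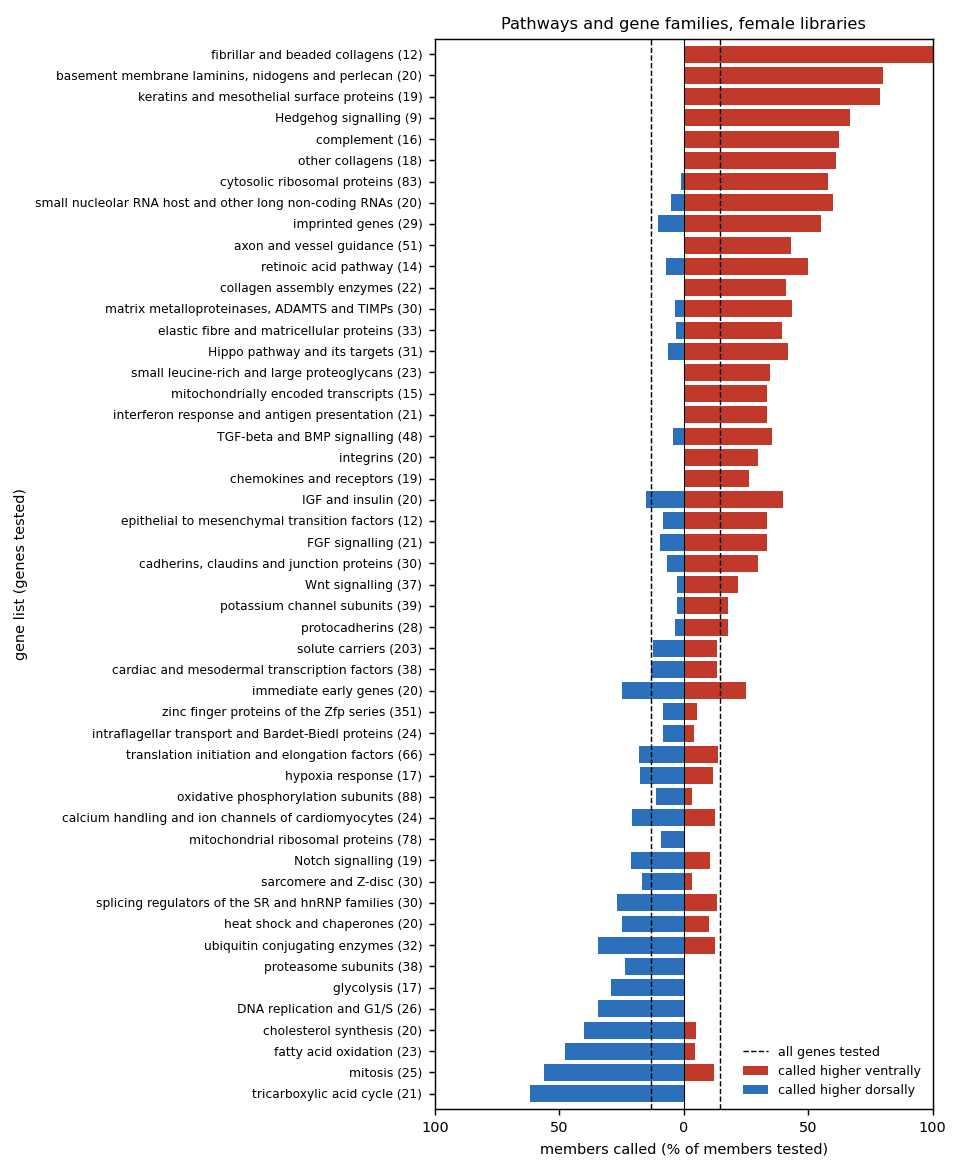
Share of the tested members of pathways and gene families called higher ventrally (red, to the right) and higher dorsally (blue, to the left), in percent, with the number tested in parentheses. Dashed lines are the shares over all genes, 14.5% and 13.3%. Collagens, basement membrane genes and mesothelial proteins stand at the ventral end and the tricarboxylic acid cycle at the dorsal end.

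Macrophage markers rose ventrally in 9 of 12, with a median of 1.72 and summed levels of 309, 498 and 672 normalized CPM ventrally against 116, 104 and 219 dorsally. Csf1r, the receptor that macrophages need to survive, measured 39.7, 64.5 and 63.2 and 11.7, 13.2 and 17.3 (log2 change 1.90, SE 0.24, adjusted p = 8.44e-04). The complement subunit C1qa, made by tissue macrophages, measured 31.8, 48.8 and 57.4 and 8.52, 8.85 and 12.6 (log2 change 2.08, SE 0.26, adjusted p = 8.52e-04). Adgre1, the antigen F4/80, measured 8.06, 12.2 and 18.7 and 5.06, 6.78 and 14.2, and these ranges overlap (log2 change 0.57, 95% interval -0.32 to 1.46, adjusted p = 0.311).

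Complement genes outside the macrophage list rose as well, so that 10 of 16 were higher ventrally and none dorsally. The central component C3 measured 31.7, 82.1 and 44.1 normalized CPM ventrally and 2.61, 2.48 and 8.61 dorsally (log2 change 3.33, SE 0.44, adjusted p = 0.00118). C2, a protease of the classical cascade, measured 12, 28 and 16.9 and 1.32, 0.245 and 2.87 (log2 change 3.08, SE 0.45, adjusted p = 0.00186), with 40.6% of its windows shared with Gm20547. Of interferon response and antigen presentation genes, 7 of 21 rose ventrally (4 without ventral replicate 2), among them the membrane protein Bst2 (57.6, 102 and 152 against 11, 16.3 and 42.2, log2 change 2.23, SE 0.46, adjusted p = 0.00691). Chemokines and their receptors had 5 of 19 higher ventrally, 1 without ventral replicate 2, 2 without dorsal replicate 2 or ventral replicate 3, 3 without dorsal replicate 3, and 8 with replicates as a block. Pf4, a chemokine of platelets that some macrophages make too, measured 68.1, 114 and 161 and 14.7, 15.7 and 55.2 (log2 change 2.15, SE 0.47, adjusted p = 0.00889), but it was the only 1 of 6 platelet markers called.

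Markers of vascular cells are taken by type. None of the 12 markers of blood endothelium was called by limma or in edgeR's count test in either direction, and 0 had an unadjusted p under 0.05. Cdh5, the adhesion molecule of all endothelium, measured 98.8, 111 and 76 normalized CPM ventrally and 78, 103 and 81.7 dorsally (log2 change 0.11, 95% interval -0.28 to 0.50, adjusted p = 0.67). Pecam1 measured 118, 101 and 54.9 and 118, 156 and 102 (log2 change -0.50, 95% interval -1.10 to 0.11, adjusted p = 0.196).

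Of 7 lymphatic markers tested, 3 rose ventrally. Lyve1, a hyaluronan receptor of lymphatic vessels that tissue macrophages carry too, measured 108, 235 and 113 and 25, 3.62 and 22.7 normalized CPM (log2 change 3.34, SE 0.58, adjusted p = 0.00358). Pdpn, on lymphatic and mesothelial cells, measured 103, 173 and 166 and 39, 49.2 and 39.2 (log2 change 1.74, SE 0.21, adjusted p = 7.55e-04). Prox1, the factor that fixes lymphatic identity and is also found in heart muscle, measured 69.6, 113 and 38.7 and 51.3, 69 and 59.3 with overlap (log2 change 0.18, 95% interval -0.53 to 0.89, adjusted p = 0.706). Thus the 2 genes with the firmest change are also used by macrophages or mesothelium, whose markers were higher ventrally, and the part of those cells was not tested. Flt4, the receptor of VEGFC, changed by 1.14 (SE 0.32, adjusted p = 0.0255) at 50.9, 84.1 and 29 against 24, 21.3 and 21.4, and lost its call without dorsal replicate 2, dorsal replicate 3, ventral replicate 1 or ventral replicate 2 (adjusted p = 0.0694, 0.0586, 0.054 and 0.08). The lymphatic count was 5 without dorsal replicate 1 or ventral replicate 3, and 6 with replicates as a block.

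Mural cell markers split, with 3 of 10 higher ventrally and 3 dorsally. Rgs5, a signalling regulator of pericytes, measured 195, 374 and 343 normalized CPM dorsally and 142, 149 and 130.5 ventrally (log2 change -1.05, SE 0.22, adjusted p = 0.00847, and 0.118 in the fit with 4 groups). Cspg4, the pericyte proteoglycan NG2, went the other way at 38.8, 39.2 and 24.4 ventrally and 12.7, 16.3 and 13.8 dorsally (log2 change 1.18, SE 0.23, adjusted p = 0.00579). Cnn1, a calponin of contractile smooth muscle, measured 281, 147 and 102 dorsally and 80.6, 83 and 42.3 ventrally (log2 change -1.28, SE 0.36, adjusted p = 0.0251). The Cnn1 call was lost without dorsal replicate 1, dorsal replicate 2 or ventral replicate 3 (adjusted p = 0.0584, 0.0524 and 0.0866). The dorsal count was 1 without dorsal replicate 1 or ventral replicate 3, and the ventral one 1 without any single library. Of 6 endocardial markers, 2 rose ventrally, Npr3 (23, 32.8 and 49 against 13.9, 6.07 and 8.26, log2 change 1.79, SE 0.34, adjusted p = 0.00488) and Adgrg6 (15.2, 24.9 and 27.1 against 8.43, 1.44 and 2.92, log2 change 2.34, SE 0.46, adjusted p = 0.00587). The endocardial list as a whole was split, with 3 changes above 0, 3 below and a median of 0.36. Its sums overlapped, at 83.9 to 106 normalized CPM ventrally and 22.5 to 126 dorsally.

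**Figure D3:**
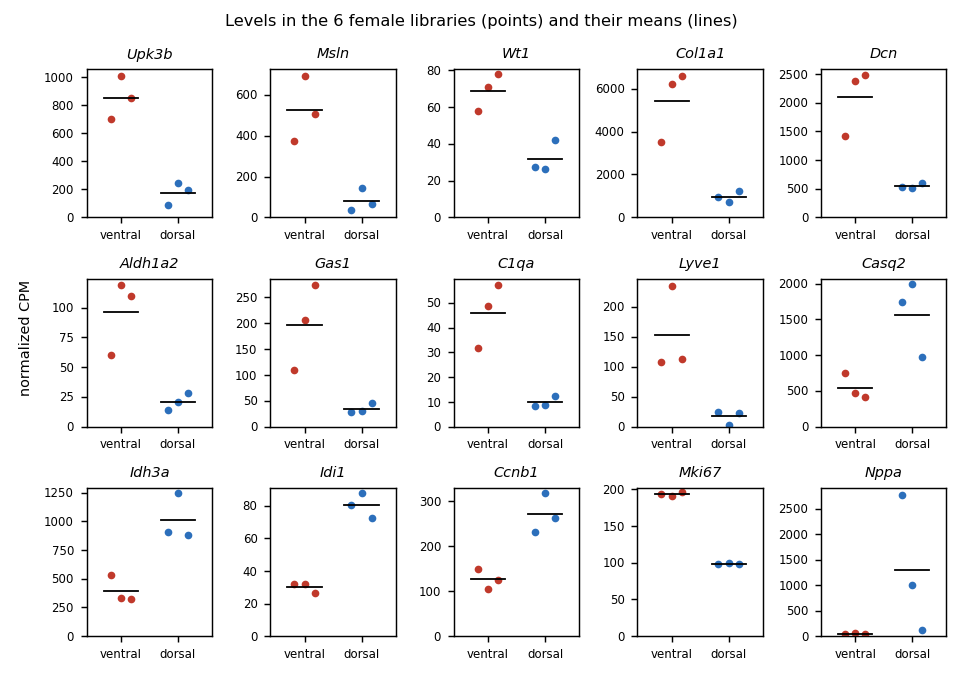
Normalized CPM (vertical axes, each from 0) of 15 genes in the 3 ventral and 3 dorsal female libraries, with points for libraries and lines for means. Mesothelial and collagen genes are higher in the 3 ventral points, Casq2, Idh3a, Idi1 and Ccnb1 in the 3 dorsal ones, and the high dorsal point of Nppa is replicate 1.

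Most markers of ventricular muscle were not called. Of 12, 2 were called higher ventrally and none dorsally, while the groups did not overlap for 3 with higher dorsal and 2 with higher ventral values. Tnnt2, cardiac troponin T, measured 8261, 11134 and 8451 normalized CPM dorsally and 7974, 5497 and 5559 ventrally, without overlap (log2 change -0.56, 95% interval -1.29 to 0.18, adjusted p = 0.231). Myh7, the fetal myosin heavy chain, measured 6121, 4986 and 4402 normalized CPM ventrally and 4228, 7628 and 5822 dorsally (log2 change -0.16, 95% interval -0.87 to 0.55, adjusted p = 0.737). Myl2, the ventricular light chain, had a change of -0.02 (95% interval -0.72 to 0.67, adjusted p = 0.965). Ttn, which encodes the giant protein titin, was higher ventrally, at 2755, 2604 and 1809.6 against 1016, 907 and 764 (log2 change 1.40, SE 0.22, adjusted p = 0.00245), but was not called once trends on GC and gene length had been taken out (adjusted p = 0.0805). With quantile normalization 5 of these markers were called higher dorsally.

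Other muscle genes were called on both sides. Smyd1, a methyltransferase that muscle needs to build sarcomeres, measured 539, 512 and 349 normalized CPM dorsally and 182, 102 and 112 ventrally (log2 change -1.84, SE 0.24, adjusted p = 0.00104). Casq2, the calcium store protein of cardiac muscle, measured 1738, 1989 and 971 and 753, 473 and 414 (log2 change -1.5, SE 0.30, adjusted p = 0.00627). The gap junction gene Gja1, in muscle and in other cells, measured 1152, 1317 and 908 and 657, 505 and 408 (log2 change -1.11, SE 0.22, adjusted p = 0.00553). In all 3 genes the groups stand apart. Of 24 genes of calcium handling and ion channels, 5 were higher dorsally, Casq2 and Gja1 among them, and 3 ventrally (0 without ventral replicate 1, 1 without dorsal replicate 3 or ventral replicate 2 or 3). The release channel Ryr2, also a ventricular marker, measured 186, 132 and 144 ventrally and 97.1, 117 and 80 dorsally (log2 change 0.65, SE 0.18, adjusted p = 0.0256), and was not called once trends on GC and length were taken out (0.14, adjusted p = 0.646). Jph2, which holds that channel near the cell membrane, measured 70.9, 65 and 56.1 and 42.4, 49.1 and 41.1 (log2 change 0.52, SE 0.15, adjusted p = 0.0313). Both calls were lost without dorsal replicate 1, dorsal replicate 3 or ventral replicate 1, among others. Of 30 sarcomere and Z-disc genes, 5 were higher dorsally and 1 ventrally. The dorsal count was 1 without ventral replicate 2, 2 without ventral replicate 3, 3 without dorsal replicate 2, 8 without dorsal replicate 3, and 10 with quantile normalization.

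Of the cardiac transcription factors, 5 of 38 rose on the ventral side and 5 on the dorsal side. Both shares were 13.2%, near the background of 14.5% and 13.3%. Nkx2-5, a factor of heart muscle identity, measured 91.3, 116 and 94.1 normalized CPM dorsally and 35.6, 23.7 and 20 ventrally (log2 change -1.92, SE 0.21, adjusted p = 6.09e-04). Mef2a, a regulator of muscle genes, measured 289, 294 and 218 and 176, 172 and 156 (log2 change -0.65, SE 0.15, adjusted p = 0.0125). The counts were 2 without ventral replicate 2, 3 without dorsal replicate 2 or ventral replicate 3 for the ventral side and 2 without ventral replicate 2, 3 without ventral replicate 3 for the dorsal side.

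Of 7 atrial markers 1, Nppa, was higher dorsally, and of 5 conduction markers 1, Gja5. Nppa, atrial natriuretic peptide, measured 2774, 1008 and 116 normalized CPM in dorsal replicates 1 to 3 and 50.2, 51.7 and 33.2 ventrally (log2 change -3.93, SE 0.88, adjusted p = 0.0101). Without dorsal replicate 1 its change was -2.93 (adjusted p = 0.0191), and 51.6% of its windows also occur in Gm13054 on the other strand. Gja5, the connexin of atria, conduction fibres and arteries, measured 98.1, 25.4 and 91.6 and 12, 7.41 and 6.36 (log2 change -2.74, SE 0.46, adjusted p = 0.00305), and -2.41 without dorsal replicate 1 (adjusted p = 0.0107). Sln and Myl7 were high in dorsal replicate 1 alone. Sln, a calcium pump inhibitor of atria, measured 1038, 4.06 and 19.4 dorsally and 32.8, 19 and 43 ventrally (log2 change -0.62, 95% interval -3.95 to 2.71, adjusted p = 0.788). Without that library the Myl7 change was 1.40 (adjusted p = 0.0104), against -0.14 with it.

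Genes of energy metabolism were called dorsally in shares above the background. Of 21 genes of the tricarboxylic acid cycle and its entry complex, 13 were higher dorsally and none ventrally, with a median change of -0.75. Idh3a, a subunit of isocitrate dehydrogenase, measured 911, 1246 and 878 normalized CPM dorsally and 531, 331 and 321 ventrally (log2 change -1.38, SE 0.23, adjusted p = 0.00286). Pdhb, of the pyruvate dehydrogenase complex, measured 903, 1410.1 and 956 and 539, 355 and 414 (log2 change -1.31, SE 0.22, adjusted p = 0.00308). All dorsal libraries were above all ventral ones in both genes. The count was 6 without ventral replicate 2, 7 without ventral replicate 3, 8 without dorsal replicate 2.

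Fatty acid oxidation had 11 of 23 genes higher dorsally (median -0.69) and 1, Cpt1a, ventrally. Etfdh, which passes electrons from the acyl dehydrogenases to the respiratory chain, measured 411, 617 and 389.8 normalized CPM dorsally and 227, 165 and 214 ventrally (log2 change -1.21, SE 0.20, adjusted p = 0.00305). Cd36, a fatty acid transporter, measured 592, 917 and 394 and 301, 250.1 and 239 (log2 change -1.19, SE 0.27, adjusted p = 0.0102). The carnitine transferase Cpt2 measured 78, 91.6 and 81.1 and 54.9, 27.9 and 36.6 (log2 change -1.10, SE 0.22, adjusted p = 0.00657). The muscle form Cpt1b shares 78% of its windows with Gm44502 and is not read here. The count was 7 without ventral replicate 2 or 3.

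Respiratory chain and glycolytic genes moved in a smaller share. Of 88 nuclear genes for oxidative phosphorylation, 10 were higher dorsally and 3 ventrally, close to the background on the dorsal side. Ndufs1, of complex I, measured 542, 791 and 475 normalized CPM dorsally and 296, 196 and 252 ventrally (log2 change -1.26, SE 0.22, adjusted p = 0.00341). The dorsal count was 3 without dorsal replicate 2 or ventral replicate 2 or 3, 5 without dorsal replicate 3, 16 without ventral replicate 1. In glycolysis 5 of 17 genes were higher dorsally and none ventrally, 2 without dorsal replicate 2 or ventral replicate 2 or 3. They were Hk1, Pkm and the 3 phosphofructokinase genes, of which Pfkm, the muscle form, measured 173, 222 and 142 and 113, 75 and 72.2 (log2 change -1.04, SE 0.21, adjusted p = 0.0068). Of the hypoxia genes 3 of 17 rose dorsally and 2 ventrally. Their shares, 17.6% and 11.8%, are near the background of 13.3% and 14.5%. Hif1a, the oxygen-regulated factor, measured 188, 224 and 201 and 122, 139.7 and 125 (log2 change -0.66, SE 0.13, adjusted p = 0.00609). Summed ventricular markers ran higher dorsally with overlap, as given above, and the part of muscle cells in these metabolic counts was not tested.

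Genes of cholesterol synthesis were higher dorsally in 8 of 20 (median -0.56). Idi1, an isomerase of the pathway, measured 80.8, 88 and 72.4 normalized CPM dorsally and 31.9, 32.1 and 26.3 ventrally (log2 change -1.39, SE 0.15, adjusted p = 6.12e-04). Hmgcs1, which makes the substrate of the rate-limiting reductase, measured 141, 154 and 101 and 69.1, 59.2 and 53.1 (log2 change -1.10, SE 0.18, adjusted p = 0.00296). The groups stood apart in both. Of Idi1 windows 24.6% are shared with other genes. The count was 3 without ventral replicate 2, 4 without dorsal replicate 1 or 2 or ventral replicate 3.

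Cell division genes were mostly higher dorsally, with exceptions. Of 25 mitotic genes, 14 were higher dorsally and 3 ventrally, and of 26 genes of DNA replication 9 were higher dorsally and none ventrally. Ccnb1, the cyclin of entry into mitosis, measured 231, 319 and 264 normalized CPM dorsally and 150.1, 105 and 125 ventrally (log2 change -1.10, SE 0.17, adjusted p = 0.00245). Bub1, a kinase of the spindle checkpoint, measured 59.2, 73.9 and 64.9 and 39.4, 28.5 and 33.9 (log2 change -0.95, SE 0.17, adjusted p = 0.00395). Rrm2, which makes deoxynucleotides, measured 391.8, 551 and 450.2 and 244, 133 and 127 (log2 change -1.51, SE 0.24, adjusted p = 0.00266). These 3 genes were higher in every dorsal library than in any ventral one.

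The ventral exceptions were Mki67, Cenpe and Cenpf, long genes of chromosome coating and centromere attachment. Mki67, which encodes the proliferation antigen Ki-67, measured 194, 191 and 197 normalized CPM ventrally and 97.7, 99.5 and 98.9 dorsally (log2 change 0.97, SE 0.12, adjusted p = 8.12e-04). Cenpf measured 189, 189 and 172 and 94.1, 111 and 103 (log2 change 0.83, SE 0.13, adjusted p = 0.00224). The usual proliferation marker and the mitotic cyclin thus pointed to opposite sides in these female libraries. In males all 25 mitotic genes changed by less than 0, the ventral exceptions included. Mki67 measured 52.8 to 90.7 normalized CPM in male ventral and 45.7 to 96.3 in male dorsal libraries. With GC and length trends taken out, Mki67 changed by 0.86 (adjusted p = 0.00155) and Ccnb1 by -0.86 (adjusted p = 0.0066), while the dorsal mitotic count was 9. Over all genes called, median length was 5377 bases for those higher ventrally and 4337 for those higher dorsally, against 4266 for all genes tested. The mitotic count was 6 without dorsal replicate 2 or ventral replicate 3, 8 without dorsal replicate 3, 9 without ventral replicate 2, and the replication count 5 without dorsal replicate 3. Of Ccnb1 windows, 21.5% also occur in a pseudogene.

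Promoter sequences of genes that went to opposite sides, and of both cholesterol genes, are shown because mitotic and cholesterol genes are each known as sets with shared promoter elements. They come from RefSeq (GRCm38.p6), cover the 120 bases before the annotated start on the gene's strand, 5′ to 3′, and carry in capitals the letters CCAAT of the CCAAT box, read on both strands, and the letters TTTGAA of the cell cycle homology region, read on both strands.
Ccnb1 (chr13:100786487-100786606, minus strand): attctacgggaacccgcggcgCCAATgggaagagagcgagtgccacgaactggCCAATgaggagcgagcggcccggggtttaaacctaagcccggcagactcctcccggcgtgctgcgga
Bub1 (chr2:127831860-127831979, minus strand): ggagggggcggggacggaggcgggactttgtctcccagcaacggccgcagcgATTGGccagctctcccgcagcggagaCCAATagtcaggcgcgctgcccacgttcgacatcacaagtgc
Mki67 (chr7:135716380-135716499, minus strand): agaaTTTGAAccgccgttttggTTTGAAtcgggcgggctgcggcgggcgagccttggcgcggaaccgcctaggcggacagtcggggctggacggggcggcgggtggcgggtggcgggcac
Cenpf (chr1:189688087-189688206, minus strand): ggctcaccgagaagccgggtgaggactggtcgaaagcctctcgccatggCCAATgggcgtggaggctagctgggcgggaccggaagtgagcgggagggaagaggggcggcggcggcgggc
Idi1 (chr13:8885486-8885605, plus strand): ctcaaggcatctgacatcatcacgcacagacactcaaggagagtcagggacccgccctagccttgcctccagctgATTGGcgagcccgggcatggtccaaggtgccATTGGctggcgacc
Hmgcs1 (chr13:119690231-119690350, plus strand): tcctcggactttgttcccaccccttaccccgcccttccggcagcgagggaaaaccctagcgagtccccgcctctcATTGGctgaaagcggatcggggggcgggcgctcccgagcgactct
Ccnb1 and Bub1 each hold 2 CCAAT boxes in this window and Cenpf 1. Mki67 holds 2 TTTGAA matches and no CCAAT box there, but has CCAAT within 250 bases. Among mitotic genes not printed, Cenpe, also higher ventrally, holds CCAAT in its 120 bases, and Cdk1 holds both motifs. Whether promoters differ between the sides was not tested. Idi1 holds 2 CCAAT boxes and Hmgcs1 1. In the 250 bases before the start, CCAAT was found on either strand in 18 of 21 mitotic promoters (85.7%) and 13 of 14 cholesterol promoters (92.9%) in the table, against 36.7% of the 10648 promoters of genes tested. Among genes called, the share was 39% for those higher dorsally and 31.4% for those higher ventrally. TTTGAA was found in 7 of the 21 mitotic promoters (33.3%) and 1 of the 14 cholesterol ones (7.14%), against 10.6% of the genes tested. The motifs are letters in a window, on genes of both sides.

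Immediate early genes, which respond to stimuli within minutes, were called in both directions, 5 of 20 ventrally and 5 dorsally. Klf2, a factor that responds to shear in endothelium, measured 53.1, 68.6 and 69.2 normalized CPM dorsally and 14.8, 14.7 and 10.7 ventrally (log2 change -2.17, SE 0.20, adjusted p = 3.34e-04). Klf4, a related factor, measured 44.9, 55.8 and 68.9 ventrally and 15.1, 17.1 and 20.6 dorsally (log2 change 1.62, SE 0.20, adjusted p = 8.95e-04). Dusp1, a phosphatase induced by stress, was higher dorsally by -0.83 (SE 0.16, adjusted p = 0.0058). Of 20 heat shock genes, 5 were higher dorsally and 2 ventrally, the former being 3 without dorsal replicate 2 or 3 or ventral replicate 1 or 2 or 3. Hspb7, a small heat shock protein of heart muscle, measured 956, 1012 and 866 and 607, 561 and 301 (log2 change -1.01, SE 0.25, adjusted p = 0.0161).

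Genes of protein synthesis were called on both sides. Of 83 cytosolic ribosomal protein genes, 48 were higher ventrally and 1 dorsally, with a median of 0.56. Rps12, of the small subunit, measured 85, 91.4 and 94.9 normalized CPM ventrally and 35.8, 41.5 and 46.9 dorsally (log2 change 1.12, SE 0.15, adjusted p = 0.00118), with 22.7% of its windows in pseudogenes. The count was 12 without ventral replicate 2, 14 without ventral replicate 3, 21 without dorsal replicate 2, 23 without dorsal replicate 1, and 17 by eBayes without trend. Of 66 initiation and elongation factors, 12 were higher dorsally, Eif2b5 and Eif3b among them, and 9 ventrally (5 without ventral replicate 2 or 3). These shares, 18.2% and 13.6%, lie near the 13.3% and 14.5% over all genes. Of 78 mitochondrial ribosomal proteins, 7 were higher dorsally (2 without dorsal replicate 2 or ventral replicate 2, 4 without ventral replicate 3, 12 without dorsal replicate 1 or ventral replicate 1) and none ventrally. The dorsal share of 8.97% is below the 13.3% over all genes. The elongation factor Eef2 measured 905, 1006 and 989 and 419, 460.1 and 621 (log2 change 0.97, SE 0.18, adjusted p = 0.0046). Proteasome subunits were higher dorsally in 9 of 38 and ventrally in none, 3 without ventral replicate 2, 5 without dorsal replicate 2 or 3 or ventral replicate 3. Psmd2, of the regulatory particle, measured 304, 339 and 286 and 182, 137 and 168 (log2 change -0.93, SE 0.15, adjusted p = 0.00252). Ubiquitin conjugating enzymes had 11 of 32 higher dorsally and 4 ventrally, the former 7 without dorsal replicate 2 and the latter 1 without dorsal replicate 2 or ventral replicate 2 or 3. Ube2s, which builds ubiquitin chains at the end of mitosis, measured 161, 221 and 210.4 and 47.8, 62.4 and 59.8 (log2 change -1.78, SE 0.17, adjusted p = 3.34e-04).

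Imprinted genes, of which one parental copy is silent and many promote fetal growth, were higher ventrally in 16 of 29 and dorsally in 3. H19, a non-coding RNA of the growth-restraining maternal copy, measured 1857, 2620.1 and 2894 normalized CPM ventrally and 384, 402 and 688 dorsally (log2 change 2.35, SE 0.26, adjusted p = 6.14e-04). Zdbf2, a growth-promoting gene of the paternal copy, measured 44.8, 62.6 and 53.6 and 7.64, 7.98 and 13.8 (log2 change 2.37, SE 0.25, adjusted p = 4.71e-04). Grb10, which restrains growth through insulin receptors, was higher dorsally, at 1268, 1702 and 1401 against 807, 761 and 751 (log2 change -0.90, SE 0.17, adjusted p = 0.00556). Genes of either parental copy thus stood on the ventral side. Long non-coding RNAs, counted with small nucleolar RNA hosts, had 12 of 20 higher ventrally and 1 dorsally, the former 7 without dorsal replicate 1 or 2 or ventral replicate 2. Malat1, a nuclear RNA, measured 8998, 6920.4 and 5525 and 1876, 1777 and 2384 (log2 change 1.81, SE 0.28, adjusted p = 0.00212).

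Solute carriers, 203 genes, were near the background in both directions, with 27 higher ventrally and 25 dorsally. Their counts were 11 without ventral replicate 2, 17 without dorsal replicate 2 for the ventral and 11 without dorsal replicate 2, 16 without ventral replicate 2 for the dorsal side. Slc38a4, an amino acid transporter, measured 325, 339 and 255 normalized CPM dorsally and 129, 98.9 and 105 ventrally (log2 change -1.46, SE 0.16, adjusted p = 5.80e-04). Zinc finger genes of the Zfp series were below it, with 18 of 351 higher ventrally (7 without ventral replicate 2, 8 without dorsal replicate 2) and 30 dorsally (11 without dorsal replicate 2 or ventral replicate 2, 14 without dorsal replicate 3, 16 without dorsal replicate 1, 17 without ventral replicate 3).

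Beyond the lists, the largest ventral changes with groups apart included Nupr1, a stress-induced nuclear protein, at 107, 309.9 and 229 normalized CPM ventrally and 9.58, 14.2 and 28.6 dorsally (log2 change 3.55, SE 0.42, adjusted p = 7.45e-04). Myrf, a membrane-bound transcription factor of mesothelium and oligodendrocytes, measured 55.2, 118 and 119 and 2.93, 8.58 and 17.9 (log2 change 3.38, SE 0.50, adjusted p = 0.00191). Smpd3, a sphingomyelinase, measured 29.7, 52.4 and 31.3 and 1.82, 4.22 and 2.27 (log2 change 3.37, SE 0.32, adjusted p = 3.76e-04). On the dorsal side, Tcf15, a helix-loop-helix factor of somites and endothelium, measured 21.5, 30.5 and 44.5 and 3.1, 1.92 and 2.55 (log2 change -3.19, SE 0.31, adjusted p = 3.76e-04). In the same ranking, Gm21541, Gm10221, Gm10175, Gm45062, AY036118, Adnp, Gm8116 and Gm28036 share 80.2% to 100% of their windows with other genes. Their values depend on how reads were divided and are not read here.

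The male libraries, 4 ventral and 3 dorsal, served to see which changes other pools showed. In a limma fit over all 13 libraries of settled region, 32 of 15772 genes (0.203%) were called in males. The male change had the sign of the female one for 1825 (87.4%) of the genes called ventrally and for 1412 (73.6%) of those called dorsally, with male medians of 0.35 and -0.25 against 1.13 and -0.86 in females. Testing the female minus male difference called 431 genes (2.73%), of which 304 were among the female dorsal calls (15.9% of them) and 96 among the ventral ones (4.60%). Leaving out dorsal replicate 2 of the females gave 260, leaving out their ventral replicate 2 gave 267, and the count was 804 with replicates as a block. Sexes and pools differ together in these libraries, so sex and preparation cannot be told apart.

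Of the groups above, the tricarboxylic acid cycle had negative male changes in 21 of 21 genes (median -0.63), and the epicardial markers had a male median of 0.73 against 2.27 in females. Fibrillar and beaded collagens had a male median of 0.68 against 2.04, and 3 of their 12 genes differed between the sexes. Some other groups had male medians near 0 or of the other sign. Cytosolic ribosomal proteins had 0.075 against 0.56 in females. Ubiquitin conjugating enzymes had 0.0020 against -0.33, and 6 of 32 differed between the sexes. Immediate early genes had 0.31 against -0.14, and hypoxia genes 0.12 against -0.35. No epicardial marker differed between the sexes at an adjusted p under 0.05 in limma, which does not show that they changed alike. Summed epicardial markers in female dorsal libraries, at 324 to 676 normalized CPM, lay below all other groups, since male dorsal libraries held 1702 to 4732, male ventral ones 2141 to 6451 and female ventral ones 1871 to 3052.

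**Figure D4:**
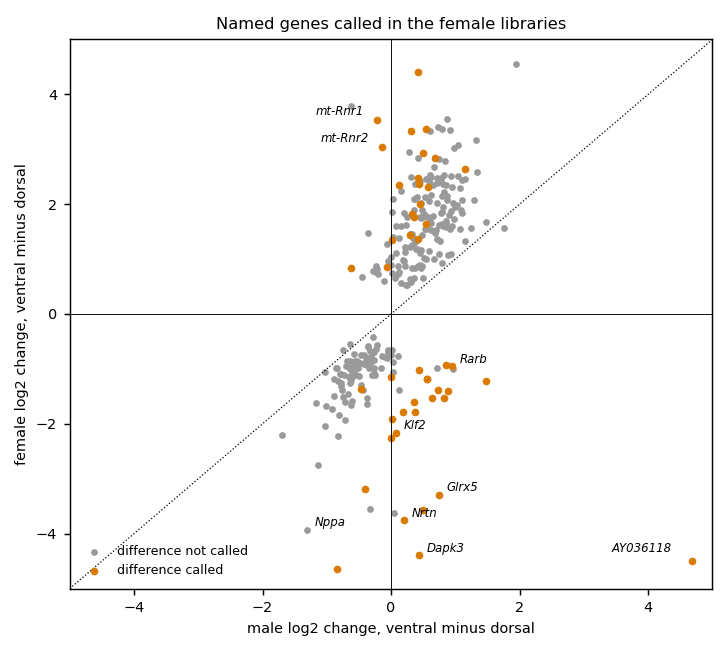
Female log2 change (vertical axis) against male log2 change (horizontal axis), ventral minus dorsal, for named genes called in the female libraries, with the dotted line marking equal changes. Orange points differ between the sexes at an adjusted p under 0.05. Glrx5, Dapk3 and Nrtn lie far below 0 for females and near or above 0 for males, and mt-Rnr1 and mt-Rnr2 far above 0 for females.

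Several of the strongest dorsal genes were high in the 3 female dorsal libraries and in no other group. Dapk3, a kinase of myosin and cell death (chromosome 10, 81183005 to 81193197, plus strand, GRCm38), measured 39, 45.2 and 41 normalized CPM there, 0.913, 1.7 and 0.616 in female ventral libraries and 0.144 to 1.82 over the 7 male libraries. Its female change was -4.39 (SE 0.28, adjusted p = 8.17e-05), and the female minus male difference -4.83 (SE 0.50, adjusted p = 1.31e-04). Nrtn, the neuronal growth factor neurturin (chromosome 17, 56751325 to 56757530, minus strand), measured 32, 25.7 and 27, 1.33, 1.99 and 0.44 and 0.513 to 1.13 in the same order (difference -3.96, SE 0.43, adjusted p = 1.46e-04). Glrx5, a mitochondrial protein of iron-sulphur cluster assembly (chromosome 12, 105032688 to 105042906, plus strand), measured 173, 237 and 214, 19.6, 17.5 and 23.9 and 5.81 to 19.9 (difference -4.04, SE 0.34, adjusted p = 5.08e-05). The 3 genes lie on 3 chromosomes. Of the 304 dorsal calls that differed between the sexes, 260 had every female dorsal library above the other 10 libraries, and 254 had a male change of the other sign. The 304 were selected on these same values, so both counts follow in part from the selection. Over all 1918 dorsal calls, 506 had a male change of the other sign.

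Among the genes described earlier, Klf2 measured 8.02 to 12.8 normalized CPM over the male libraries (difference -2.25, SE 0.31, adjusted p = 8.84e-04), and Ube2s 20.3 to 37.1 (difference -2.15, SE 0.26, adjusted p = 3.02e-04). Eif2b5, a subunit of a translation initiation exchange factor, measured 114, 122 and 107 in female dorsal, 32, 43.1 and 42 in female ventral and 11.5 to 21.4 in male libraries (difference -2.16, SE 0.22, adjusted p = 1.31e-04). Rarb, with male values of 11.3 to 27.6, had a male change of 0.95, of the other sign (difference -1.90, SE 0.28, adjusted p = 0.00135), and Hes1 one of 0.55 (difference -1.74, SE 0.39, adjusted p = 0.0272). Their dorsal calls in females therefore have no counterpart of the same sign in males. The retinoid-regulated attractant Rarres2 and the complement component C3 had male changes of 0.68 and 0.31, of the female sign but smaller (differences 2.16, SE 0.40, adjusted p = 0.00825, and 3.02, SE 0.66, adjusted p = 0.0218). For Nkx2-5 the male change was 0.01 (difference -1.93, SE 0.43, adjusted p = 0.0252).

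The 2 ribosomal RNAs of the mitochondrial genome were high in the female ventral libraries alone. mt-Rnr1 measured 4217, 4429.8 and 2340.4 normalized CPM there, 265, 397 and 270.1 in female dorsal libraries and 215 to 455 in male ones (difference 3.74, SE 0.38, adjusted p = 1.12e-04). mt-Rnr2 measured 21846, 19156 and 17672, 2250.4, 2792 and 2118 and 1173 to 3211 (difference 3.18, SE 0.42, adjusted p = 6.51e-04). Libraries were made by poly(A) selection, and these RNAs carry short tails at most. Of the 15 mitochondrially encoded transcripts listed, 5 rose ventrally in females and none dorsally, with a median of 0.51, whereas the nuclear genes of the tricarboxylic acid cycle were higher dorsally. In males all 15 transcripts changed by less than 0, with a median of -0.27.

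**Figure D5:**
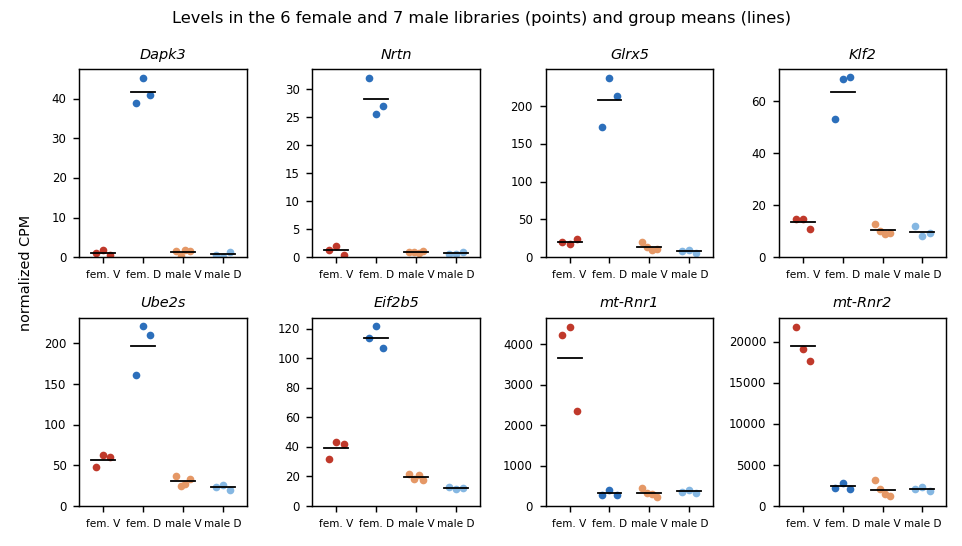
Normalized CPM (vertical axes, each from 0) of 8 genes in both regions of female and of male hearts, with points for libraries and lines for group means. Dapk3, Nrtn, Glrx5, Klf2, Ube2s and Eif2b5 are high in the 3 female dorsal points, and mt-Rnr1 and mt-Rnr2 in the 3 female ventral ones.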

How the data were processed

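According to the study's methods, poly(A) RNA was sequenced as single reads of 60 bases, adapters were trimmed with Cutadapt, reads were quantified per gene with RSEM on GRCm38 (version 1.3.1 per the submitters' processing notes, another in the methods), normalized with limma and filtered at 1 CPM in at least 3 samples. Values deposited by the authors are therefore a signal, normalized CPM, and no count. Whole reads were recovered from them for 100.0% of values (tolerance 0.02 reads), as reads plus 0.5 over an effective library size. Strand use in the quantification is not given in the sources used here.

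Groups came from the labels. Genes reaching 1 normalized CPM in 3 or more of the 6 female libraries entered a two-sided limma fit (version 3.58.1, R 4.3.3, lmFit and moderated eBayes with a mean trend) on log2(value + 1). Calls needed a Benjamini-Hochberg adjusted p below 0.05. The pseudocount compresses changes of low genes. The difference between the sexes came from a limma fit of 4 groups over 13 libraries. 1 male library with contradictory region labels was left out. Fits were tested on simulated data.

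Named genes are defining markers, up to 4 called genes per list and direction with the largest change, groups apart and a mean of at least 5 in the higher group, and the 10 largest changes per direction over the table with a mean of at least 10. The lymphangiogenic factors reported for these hearts were left out. Members and lists were chosen with earlier results of these data known. Lists were described by counts and medians, without set tests, and some items are not reported here. Positions are those of GENCODE on GRCm38, and shared sequence is the percentage of a gene's 60-base exonic windows found in another annotated gene.

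Ventral and dorsal libraries share replicate numbers. Deviations of same-numbered libraries from the mean of their side correlated at 0.174, 0.143 and 0.279 (14411 genes). Those of differently numbered libraries ran from -0.270 to 0.0715. Deviations within a side add up to 0, which ties these values to each other, so they do not establish pairs. No pairing is stated either. The main fit was therefore unpaired, and replicate numbers entered as a block only as an alternative. A count test by quasi-likelihood in edgeR 4.0.16 on the recovered reads called 3650 genes. The other alternatives were the replicate block, the 4-group fit, each library left out, a pseudocount of 0.1, filters of none or a mean of 10, rescaling by median of ratios or quantiles, limma fitted with no mean trend, and trends on GC and length taken out. A library's 3 reads correspond to 0.162 to 0.253 normalized CPM in the female libraries, which limits statements on low genes.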

Additional observations from a re-analysis of the deposited data

Results flagged for a closer look

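These genes are given because a test of the difference between the female and the male change passed an adjusted p of 0.05 in limma, in a fit where 431 of 15772 genes (2.73%) did. No explanation was tested, and sex, pool and preparation cannot be told apart in these libraries.

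Genes higher dorsally in females whose male change was smaller or of the other sign were Dapk3 (female minus male log2 change -4.83), Glrx5 (-4.04), Nrtn (-3.96), Tcf15 (-2.79), Klf2 (-2.25), Eif2b5 (-2.16), Ube2s (-2.15), Nkx2-5 (-1.93), Rarb (-1.90) and Hes1 (-1.74). Tcf15 measured 0.872 to 3.14 normalized CPM over the male libraries, against 21.5, 30.5 and 44.5 in female dorsal ones (adjusted p of the difference = 0.00406). Eef1a2 (-2.25) and Ift57 (-2.70) belong here too.

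Genes with the more positive change in females were mt-Rnr1 (difference 3.74), mt-Rnr2 (3.18), C3 (3.02), Smpd3 (2.83), Wwc1 (2.43), Adgrg6 (2.22), Rarres2 (2.16), Plxna4 (2.05), Zdbf2 (1.94), Crim1 (1.54), Cenpf (1.45), Lama5 (1.40) and Ryk (1.10). Except for Cenpf, whose male change was -0.62, and the mitochondrial ribosomal RNAs, the male values had the female sign and were smaller, from 0.12 for Adgrg6 to 0.68 for Rarres2, which does not show a male change.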

How the results depend on the processing

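Calls in the female libraries numbered 4007, and 2158 to 3845 with 1 library left out, the lowest without ventral replicate 2 and 2291 without dorsal replicate 2. All other alternatives, the replicate block among them with 4265 calls, stayed within 1.5 times. The ventral share of calls ran from 46.2% where genes needed a mean of 10 to 56.5% by eBayes without trend, against 52.1%. The difference between the sexes called 431 genes, 804 with the replicate block and 260 to 447 with 1 library left out, the lowest without female dorsal replicate 2 and 267 without female ventral replicate 2. The cause of these shifts was not tested. Of the 136 genes given with values, 126 were called, 114 of them under every alternative that gave a value. None of the called genes turned its sign under any alternative run. Of the called genes, 12 lost the call under at least 1 alternative, the most, 9, in the fit with 4 groups. Apart from defining markers, these genes were picked as called, with groups apart and among the largest changes. Their stability therefore follows in part from that choice and does not describe genes at large. With the replicate block alone, the calls of Acvr2a and Notch3 were lost (adjusted p = 0.0506 and 0.0691), and no call of another gene given with values. Genes that were not called changed sign in some fits. With 1 library left out, the log2 change of Cdh5 ran from -0.0050 to 0.26, of Myh7 from -0.38 to 0.046, of Myl2 from -0.39 to 0.22, of Prox1 from -0.19 to 0.57, of Sln from -2.23 to 1.61 and of Myl7 from -1.09 to 1.40, the last called only without dorsal replicate 1. Myl2 was also at 0.094 with the GC and length trend removed, with or without the replicate block. With 3 libraries a side, depth does not show differences of low genes.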

Other observations

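Further families gave values of their own. Among regulators of splicing, 8 of 30 were higher dorsally and 4 ventrally, the dorsal count being 4 without ventral replicate 2, 5 without dorsal replicate 3 or ventral replicate 3. Hnrnpd, an RNA-binding protein that also sets RNA stability, measured 78.1, 80.7 and 90.8 normalized CPM ventrally and 23, 29.3 and 39.1 dorsally (log2 change 1.45, SE 0.20, adjusted p = 0.00121). Celf1, which opposes muscleblind proteins in muscle splicing, measured 179, 185 and 148 dorsally and 108, 102 and 87.8 ventrally (log2 change -0.78, SE 0.14, adjusted p = 0.00468). These 2 RNA-binding genes stood on opposite sides.

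Potassium channel subunits were higher ventrally in 7 of 39 (1 without ventral replicate 2, 2 without ventral replicate 3, 3 without dorsal replicate 2, 4 without dorsal replicate 1 or ventral replicate 1) and dorsally in 1, Kcnj5. That gene, a subunit of the acetylcholine-gated channel of atrial and pacemaker cells, measured 118, 46.7 and 34.7 in dorsal replicates 1 to 3 and 18.5, 18.4 and 16.3 ventrally (log2 change -1.65, SE 0.37, adjusted p = 0.0103). Without dorsal replicate 1 its change was -1.14 (adjusted p = 0.00904).

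Eef1a2, the elongation factor of muscle and neurons, measured 10.4, 9.94 and 9.36 normalized CPM dorsally and 1.64, 1.19 and 1.03 ventrally (log2 change -2.26, SE 0.29, adjusted p = 8.95e-04), with male values of 1.18 to 3.77. Ift57, a protein of transport within cilia, measured 26.9, 26.1 and 26.7 normalized CPM dorsally and 7.75, 13.6 and 12 ventrally in females (log2 change -1.22, SE 0.24, adjusted p = 0.00572) with a male change of 1.48. Of its family 2 of 24 were higher dorsally and 1 ventrally. Both shares lie below those over all genes, 13.3% and 14.5%.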
